A study of Rattus norvegicus with 20 samples.

Results

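The liver mRNAs described here encode 6 proteins that carry hormones and vitamins in plasma and 3 enzymes of retinoid and thyroid hormone metabolism. The carriers are *Gc*, *Ttr*, *Serpina7*, *Serpina6*, *Rbp4* and *Alb*, and the enzymes are *Bco1*, *Aldh1a1* and *Dio1*. They were taken by symbol from the annotation of the Affymetrix RAE230A array, which gave 11 ProbeSets for these 9 genes, out of 12789 ProbeSets with a single symbol for 10412 genes. *Gc* and *Alb* have 2 ProbeSets each. One further ProbeSet lists *Ttr* among 3 symbols and was not counted.

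Livers of 20 male rats aged 10 to 12 weeks were profiled, 4 from each of 5 strains or lines and 1 rat to an array. S-D rats were out-bred Sprague-Dawley. L-E rats came from the in-bred strain Long-Evans (Turku/AB), and H/W rats from a random-bred closed colony of Han/Wistar (Kuopio). Line-A and Line-C descend from crosses of L-E with H/W. S-D, L-E and Line-C carry the wildtype aryl hydrocarbon receptor gene *Ahr*, while H/W and Line-A carry a variant of it. All rats received only corn oil by gavage 19 hours before the liver was taken, as the notes shared by all samples state, although the S-D titles say only control. Values are log2 signals per ProbeSet, and a mean signal of 4 is the limit of expression that the study used. All 11 ProbeSets had a mean over the 20 arrays above this limit. Array medians ran from 3.47 to 3.69.

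The arrays were scanned on 5 days. One of these days, with its own operator, held all S-D arrays and nothing else, and another held Line-A and Line-C. A difference between S-D and any other group, or between a line and L-E or H/W, therefore cannot be told apart from a difference between scan days. H/W and L-E shared 2 of the other days, and Line-A and Line-C can be compared within 1 day. In a bulk liver sample, fewer cells of a type and less mRNA per cell cannot be told apart. Of 9 hepatocyte markers measured, all 9 were expressed in the samples labelled liver.

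Hormones and vitamins that dissolve poorly in water travel in plasma bound to proteins that hepatocytes secrete. Thyroxine is carried by thyroxine-binding globulin (*Serpina7*), transthyretin (*Ttr*) and albumin (*Alb*), corticosterone by transcortin (*Serpina6*), vitamin D metabolites by *Gc*, and retinol by *Rbp4* in a complex with *Ttr*. Retinoids are formed from beta-carotene by *Bco1*, retinal is oxidised to retinoic acid by *Aldh1a1* among other enzymes, and *Dio1* converts thyroxine to the active hormone and removes iodine from spent hormone.

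Strain differences were uneven among these genes. A single ProbeSet of *Gc* was low in L-E, *Bco1* was low in H/W, *Serpina6* was low and *Serpina7* high in S-D, and *Aldh1a1* was highest in L-E and lowest in the lines. The signals of *Alb*, *Ttr*, *Rbp4* and the brighter *Gc* ProbeSet moved by at most 0.18 log2 units between group means. These ProbeSets held top signals, no lower than rank 19, on every array, and GC-RMA sets arrays to a common distribution, which largely fixes the values there, so their small differences are no measure of stability. By limma's F-test at 0.1% FDR, 5 of the 11 ProbeSets were called, where 4.60% of all 15923 ProbeSets and 9.47% of the 7168 expressed ones were. Over the 10 pairs of groups at 1% FDR there were 22 calls for these ProbeSets, and 3.51% of all such comparisons were called. Against S-D, 3 ProbeSets were called in L-E (5.07% of all ProbeSets), 3 in H/W (3.27%), 2 in Line-A (6.59%) and 2 in Line-C (4.30%). Against L-E, 2 were called in H/W (1.38%), 4 in Line-A (5.66%) and 3 in Line-C (3.71%). Against H/W, 1 was called in Line-A (2.84%) and 2 in Line-C (1.70%). The 22 calls fell on 7 ProbeSets, and none of them was between Line-A and Line-C, a pair with 0.534% of all ProbeSets called. For that pair no member had an unadjusted p under 0.05.

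**Figure D1:**
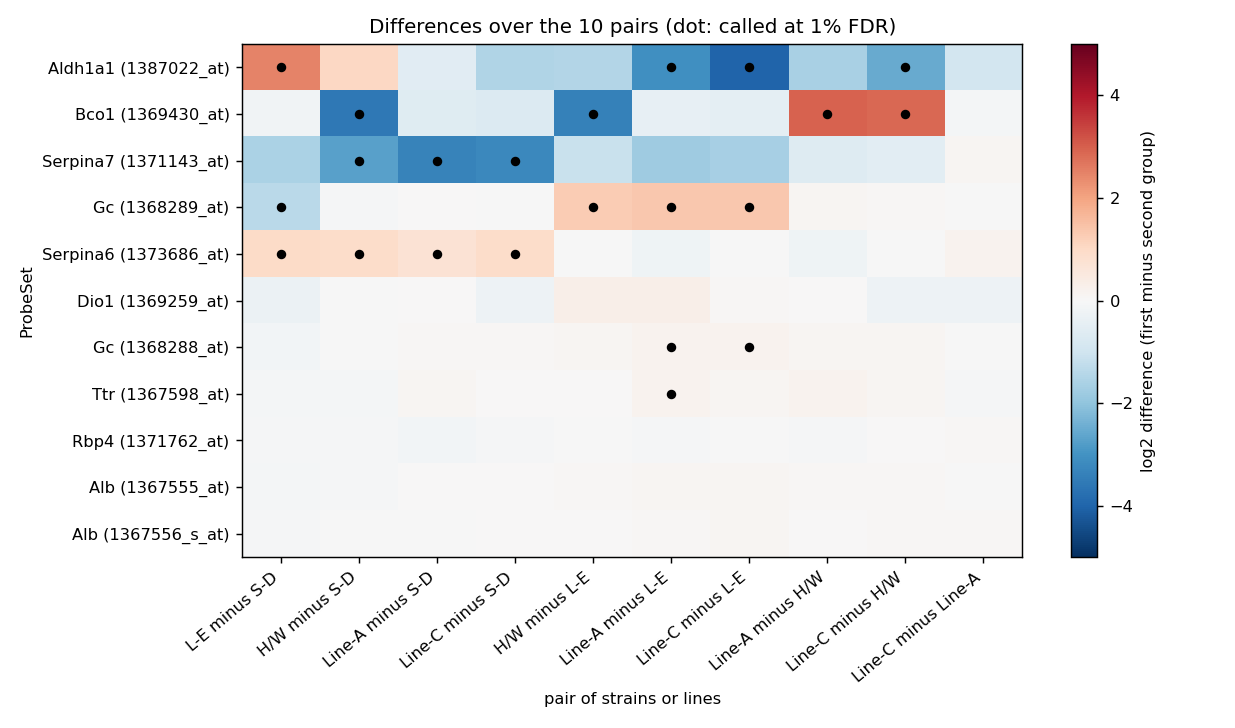
Differences in log2 signal (colour scale, first group minus second) for the 11 ProbeSets, ordered by the range of their group means, over the 10 pairs of strains and lines, with a dot where limma called the pair at 1% FDR. The 22 dots lie in rows of Aldh1a1, Bco1, Serpina7, Serpina6, Ttr and both Gc ProbeSets, and there is none in the column of Line-C and Line-A.

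Promoter windows of 4 of the genes whose ProbeSets passed the F-test are shown because these are the mRNAs that moved between strains. Windows of 300 bases, from 250 before to 50 after 1 transcript start per gene, were taken from RefSeq for the assembly GRCr8, made from a Brown Norway rat and so from none of the strains measured. In *Gc* that start is the outer end of the annotated gene, and in *Bco1* it lies close to it. In *Serpina7* and *Aldh1a1* it lies far inside the gene as annotated on the same assembly, so these 2 windows are not upstream of the whole gene. Which start is used in these livers was not measured. Of the 9 genes, 8 matched a window. Capitals mark matches, on either strand, to the letters GTTAAT (the half-site of the liver factor HNF1), TATAAA (the TATA box core), CCAAT (the CCAAT box core) and AGGTCA (a nuclear receptor half-site). The windows lie at chr14:18916005-18916304 (plus strand), chrX:107457632-107457931 (minus strand), chr19:62057890-62058189 (plus strand) and chr1:227537370-227537669 (plus strand), and each is written along the strand of its gene.
Gc: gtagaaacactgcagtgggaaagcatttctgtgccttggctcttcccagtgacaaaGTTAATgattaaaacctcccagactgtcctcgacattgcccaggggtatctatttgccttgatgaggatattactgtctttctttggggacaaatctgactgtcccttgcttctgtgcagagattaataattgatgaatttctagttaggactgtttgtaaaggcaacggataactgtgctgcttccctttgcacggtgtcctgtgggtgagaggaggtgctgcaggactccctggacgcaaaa
Serpina7: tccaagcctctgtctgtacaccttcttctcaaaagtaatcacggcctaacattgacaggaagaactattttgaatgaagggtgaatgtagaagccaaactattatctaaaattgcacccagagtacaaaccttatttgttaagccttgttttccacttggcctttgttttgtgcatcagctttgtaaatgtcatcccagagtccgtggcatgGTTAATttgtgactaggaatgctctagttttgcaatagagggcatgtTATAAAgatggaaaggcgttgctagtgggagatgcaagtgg
Bco1: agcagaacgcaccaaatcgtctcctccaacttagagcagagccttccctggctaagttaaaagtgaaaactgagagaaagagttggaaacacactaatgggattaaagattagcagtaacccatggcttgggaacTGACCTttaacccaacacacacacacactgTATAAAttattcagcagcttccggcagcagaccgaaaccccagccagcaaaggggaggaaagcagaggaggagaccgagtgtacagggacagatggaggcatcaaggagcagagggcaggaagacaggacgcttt
Aldh1a1: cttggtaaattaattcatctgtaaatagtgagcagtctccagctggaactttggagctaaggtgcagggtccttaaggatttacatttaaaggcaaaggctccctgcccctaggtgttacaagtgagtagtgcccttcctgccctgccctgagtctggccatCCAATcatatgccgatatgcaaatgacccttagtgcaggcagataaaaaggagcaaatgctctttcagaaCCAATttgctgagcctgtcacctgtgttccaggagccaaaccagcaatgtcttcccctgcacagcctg

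GTTAAT occurred in 3 of the 8 windows, those of *Gc*, *Serpina7* and *Alb*, and in 7.45% of all 33469 windows. Counted from the transcript start of each window to its first letter, it lay at -194 in *Gc*, -38 in *Serpina7* and -82 in *Alb*. TATAAA occurred in *Bco1*, *Serpina7* and *Rbp4*, against 14.2% of all windows, and CCAAT in *Aldh1a1*, *Alb* and *Ttr*, against 37.5%. On the same count TATAAA lay at -85 in *Bco1*, 9 in *Serpina7* and -50 in *Rbp4*. CCAAT lay at -88 and -18 in *Aldh1a1*, -106 and -65 in *Alb* and 16 in *Ttr*. The matches at 9 and 16 are downstream of the transcript start. In *Ttr*, too, the start used lies inside the gene as annotated on the same assembly. AGGTCA occurred in *Bco1* alone, on the other strand as TGACCT, against 16.2% of all windows. None of these motifs overlapped another in the windows shown. The matches are letters in a reference sequence, and binding was not measured.

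*Gc*, which carries vitamin D metabolites and also binds actin released into plasma, gave different patterns in its 2 ProbeSets, although the annotation assigns both to the same sequence record. In ProbeSet 1368289_at the 4 L-E rats had log2 signals of 9.91, 10.08, 10.02 and 10.11. The H/W rats had 11.14, 11.51, 11.32 and 11.23. The 4 S-D rats had 11.24, 11.46, 11.38 and 11.42. All 4 L-E rats lay below every rat of the other groups, whose signals ran from 11.14 in H/W to 11.55 in Line-A. The L-E group mean was 10.03 ± 0.09 (SD, n = 4), and the others were between 11.30 and 11.39 elsewhere. H/W exceeded L-E by a log2 difference of 1.27 with a standard error of 0.08, that is 2.41-fold (limma, adjusted p = 5.58e-08), and the excess over L-E was 2.54-fold in S-D, 2.58-fold in Line-A and 2.51-fold in Line-C. In the 5 arrays from 1 scan day that included both strains the log2 difference was 1.35 (limma, adjusted p = 0.0393), above the 1% FDR of the pairs, and in the pair of arrays of the other shared day it was 1.23.

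The other ProbeSet of *Gc*, 1368288_at, was bright in every rat. Its signals were 15.55, 15.60, 15.59 and 15.59 in L-E and 15.66, 15.75, 15.58 and 15.68 in H/W. The lines lay between 15.70 and 15.81. L-E was again the lowest group, but by far less, and its range overlapped that of H/W. Line-A exceeded L-E by 0.18 and Line-C by 0.17 log2 units (limma, adjusted p = 0.00299 and 0.00701), and both calls ended when the arrays were set to equal medians, with differences of 0.08 and 0.08 and adjusted p-values of 0.0578 and 0.0855. The F-test did not call this ProbeSet (adjusted p = 0.00686).

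The difference between both *Gc* ProbeSets within a rat removes what they share. It was 5.55 ± 0.07 log2 units in L-E (SD, n = 4) and 4.36 on average over the other groups, where it ran from 4.20 to 4.53. No rat of another group came near the L-E range of 5.48 to 5.64. The L-E excess of 1.19 had an exact two-sided permutation p = 2.06e-04, the smallest that the choice of 4 from 20 arrays can give, and an adjusted p = 0.00206 over the 10 comparisons of this kind. In the dimmer ProbeSet all L-E rats already lay below all others, by more than the whole range of the brighter one. This p therefore follows from that separation and is no separate support for a difference between the ProbeSets. The brighter ProbeSet ranked 3 to 6 among all signals of every array, in the range that normalization compresses, and the part of this in the gap was not tested. The sequences of their probes were not used here. For *Alb*, whose ProbeSets were compared in the same way, no group stood apart (lowest adjusted p = 0.343, exact permutation test).

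**Figure D2:**
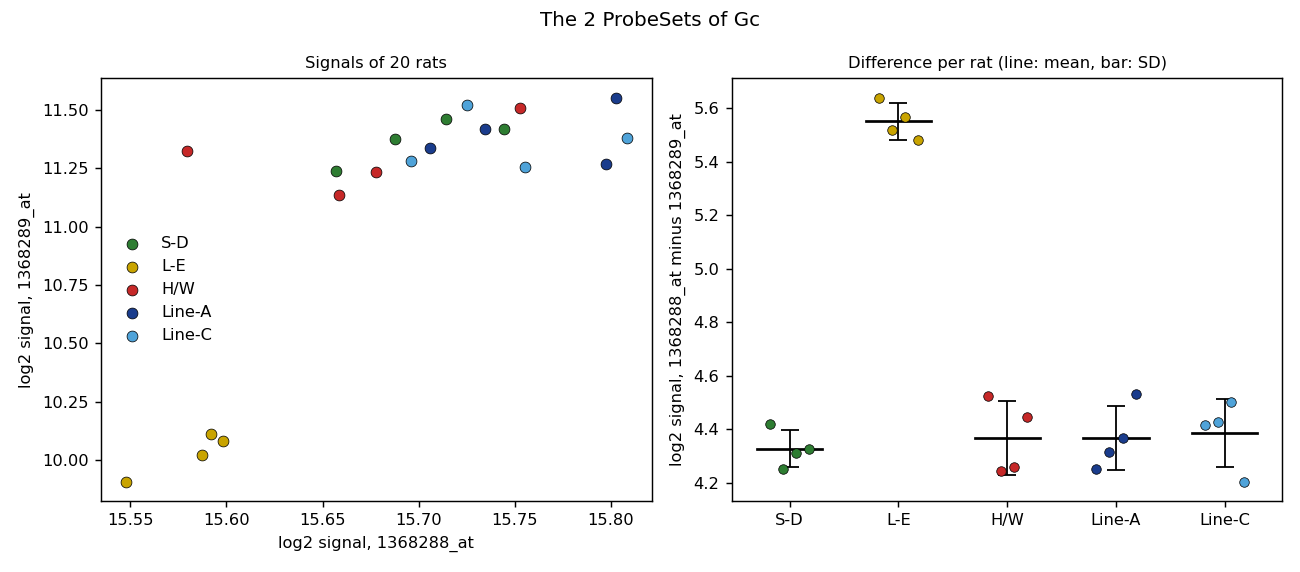
Left, log2 signal of the ProbeSet 1368289_at of Gc (vertical) against 1368288_at (horizontal) in 20 rats, coloured by group. Right, the difference of both signals in each rat, with the group mean and SD, where the 4 L-E rats lie at 5.48 to 5.64 and all others at 4.20 to 4.53.

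Vitamin D metabolism was otherwise scarcely represented. On a list of 10 genes of its activation and action, 8 were measured and 4 were expressed, and the F-test called none of them. The lowest adjusted p was 0.0121 for *Pdia3*, a protein disulfide isomerase. *Cyp27a1*, a mitochondrial P450 that can add the 25-hydroxyl group, lay between 10.99 in S-D and 11.44 in L-E (group means, log2 signal). The vitamin D receptor *Vdr* and the renal activating enzyme *Cyp27b1* were under the limit of expression, with mean signals of 2.58 and 1.74.

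*Serpina7*, the high-affinity carrier of thyroxine, was the most variable of the carriers. The 4 S-D rats had log2 signals of 6.26, 8.00, 6.08 and 7.48. In L-E the signals were 6.23, 5.77, 5.37 and 4.18, and in H/W 4.37, 4.14, 3.60 and 4.93. Line-A gave 4.04, 3.90, 3.24 and 3.31 and Line-C 3.29, 4.02, 4.58 and 3.06. All S-D rats lay above all rats of H/W and both lines, while the 3 S-D and L-E rats at 6.08, 6.23 and 6.26 were nearly level, so that these groups overlapped. The line means of 3.62 and 3.74 lie under the limit of expression. With signals under 4 set to 4, S-D was at least 7.71-fold higher than Line-A, at least 7.00-fold higher than Line-C and at least 6.05-fold higher than H/W (limma on the unbounded signals, adjusted p = 2.16e-04, 3.98e-04 and 0.00234). The log2 difference of L-E from S-D, -1.57 with a standard error of 0.49, was not called (adjusted p = 0.0541), nor was that between H/W and L-E (adjusted p = 0.241).

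The order of the *Serpina7* means was S-D, L-E, H/W, Line-C and Line-A, and no neighbours in this order differed at 1% FDR. Its F-test had an adjusted p of 4.21e-04, which rose to 0.00176 without S-D replicate 2 and 0.00231 without S-D replicate 4, both past the 0.1% limit. It also passed that limit, at 0.00101 to 0.00114, without Line-C replicate 1 or Line-A replicate 3 or 4, and it was 0.0101 when scan day entered as a random block. With that block the difference between H/W and S-D had an adjusted p of 0.0196 and was no longer called at 1% FDR. It was also lost without S-D replicate 4 (adjusted p = 0.0102) and with the 8 arrays of the pair alone (0.0298), where the difference between Line-C and S-D was lost too (0.0129).

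**Figure D3:**
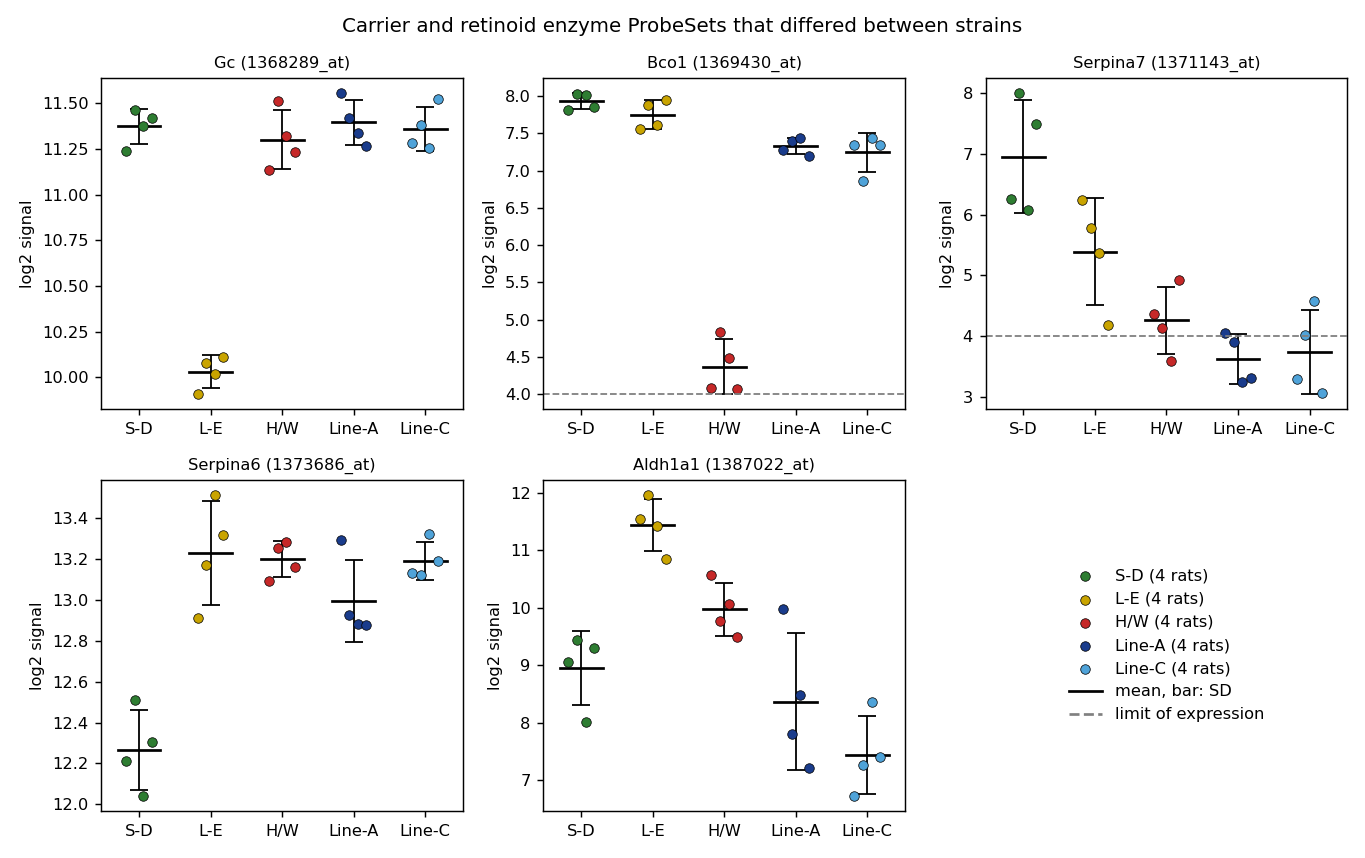
Log2 signal (vertical axis) of each rat in the 5 groups for the 5 ProbeSets called by the F-test, with group mean, SD and, where it falls in the panel, the limit of expression at 4. Gc 1368289_at is low in the 4 L-E rats, Bco1 in the 4 H/W rats and Serpina6 in the 4 S-D rats, while Serpina7 and Aldh1a1 spread more widely within groups.

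Transthyretin (*Ttr*), which carries both thyroxine and the complex of retinol with *Rbp4*, was among the top 14 signals of every array. Its signals were 15.32, 15.31, 15.33 and 15.33 in S-D, 15.13, 15.21, 15.29 and 15.27 in L-E and 15.19, 15.21, 15.25 and 15.29 in H/W. Line-A had 15.42, 15.33, 15.37 and 15.50, and Line-C 15.30, 15.33, 15.37 and 15.36. Each rat of the lines lay above each rat of H/W and L-E. Line-A exceeded L-E by 0.18 log2 units or 1.13-fold (limma, adjusted p = 0.00559), the only pair called at 1% FDR for *Ttr*. With equal array medians this difference was 0.08 (adjusted p = 0.127), and leaving out L-E replicate 1 or 2 or Line-A replicate 1 or 4 gave adjusted p-values of 0.0158 to 0.0204. The call was lost in 4 of 8 alternative settings, equal medians among them. The F-test gave an adjusted p of 0.00890, which is not a call. The uncounted ProbeSet that lists *Ttr* among 3 symbols had another pattern. Its group means were 13.19 ± 0.93 in S-D, 13.54 ± 1.17 in L-E and 13.17 ± 1.02 in Line-C (SD, n = 4). In H/W and Line-A, which carry the variant *Ahr*, they were lower, at 10.91 ± 1.40 and 10.91 ± 1.55. It is not among the 11 ProbeSets, and which of its 3 genes gives this signal was not tested.

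*Dio1*, the type 1 deiodinase, varied between rats and not detectably between strains (limma's F-test, adjusted p = 0.589). The L-E rats had signals of 5.10, 5.03, 5.11 and 6.42, so that 1 rat exceeded all 19 others. S-D rats had 5.71, 5.92, 5.58 and 5.65, and the other groups lay between 5.28 and 6.09. Group means ran from 5.41 ± 0.67 in L-E to 5.72 ± 0.34 in Line-A (SD, n = 4), and every pair of groups but 1 overlapped.

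On a list of 23 further genes of thyroid hormone handling and action, 19 were measured, 14 were expressed and 2 were called by the F-test. *Sult1b1*, a sulfotransferase of thyroid hormones, had means of 12.66 ± 0.11 in S-D, 11.74 ± 0.06 in L-E, 12.16 ± 0.23 in H/W, 12.47 ± 0.07 in Line-A and 12.64 ± 0.19 in Line-C (limma's F-test, adjusted p = 2.55e-05). *Slco1b2*, a hepatocyte uptake transporter of organic anions, was lowest in H/W at 11.52 ± 0.13 and highest in L-E at 12.40 ± 0.14 (adjusted p = 3.87e-06). Neither took the order of *Serpina7*. The hormone-responsive gene *Thrsp* was 13.80 in Line-A and 11.15 in S-D, with an adjusted p of 0.00134 that missed the 0.1% limit. The other deiodinases *Dio2* and *Dio3* and the receptor *Thrb* were under the limit of expression.

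*Serpina6*, the carrier of corticosterone, was low in S-D. Its log2 signals there were 12.21, 12.51, 12.04 and 12.31. The L-E rats had 12.91, 13.17, 13.51 and 13.32, and the H/W rats 13.09, 13.25, 13.29 and 13.16. Line-A gave 13.29, 12.93, 12.88 and 12.88, and Line-C 13.13, 13.12, 13.32 and 13.19. All 4 S-D rats lay below all 16 other rats, and the other 4 groups overlapped one another. S-D was lower than L-E by 0.96 log2 units or 1.95-fold, than H/W by 1.91-fold, than Line-C by 1.90-fold and than Line-A by 1.66-fold (limma, adjusted p = 6.37e-05, 1.25e-04, 1.04e-04 and 6.79e-04). The remaining 6 pairs were not called, with log2 differences of at most 0.23 in size.

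When scan day was a random block, 3 of these 4 calls of *Serpina6* remained. All S-D arrays came from 1 scan day that held nothing else, so this block cannot separate S-D from its day. The difference to Line-A had an adjusted p of 0.0108 in that fit. When only the 8 arrays of a pair were fitted, the adjusted p was 0.0124 for Line-A and 0.0113 for L-E, both past the 1% limit. In S-D, *Serpina6* was low where *Serpina7* was high, although both belong to the same family of serpins, and their values come from the same arrays.

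On a list of 18 genes of glucocorticoid handling and action, 16 were measured, 13 were expressed and 3 were called by the F-test. *Hsd11b1*, which regenerates active corticosterone in liver, was highest in S-D at 13.66 ± 0.14 (SD, n = 4) and lowest in Line-C at 12.86 ± 0.14 (limma's F-test, adjusted p = 6.24e-04). *H6pd*, which supplies its NADPH, was also highest in S-D, at 9.34 ± 0.25 against 8.26 ± 0.31 in Line-A (adjusted p = 3.99e-04). *Fkbp4*, a co-chaperone of the glucocorticoid receptor, was 10.12 ± 0.10 in S-D and 10.97 ± 0.36 in H/W (adjusted p = 2.49e-04). The receptor itself, *Nr3c1*, lay between 8.01 and 8.35 (adjusted p = 0.742), and the receptor's target *Tat* between 9.96 and 10.67 (adjusted p = 0.214).

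*Rbp4*, which takes retinol from liver to other tissues, also held one of the top 19 signals of every array. Its signals were 15.32, 15.29, 15.33 and 15.27 in S-D, 15.31, 15.24, 15.14 and 15.31 in L-E and 15.31, 15.20, 15.39 and 15.00 in H/W. The lines lay between 15.05 and 15.28. Group ranges overlapped in most pairs, no pair was called, and the mixed model left no variance between strains (limma's F-test, adjusted p = 0.520).

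*Bco1*, which splits beta-carotene into retinal, was low in H/W alone. The H/W rats had log2 signals of 4.09, 4.84, 4.49 and 4.07, close to the limit of expression. The L-E rats had 7.56, 7.87, 7.61 and 7.95, and the S-D rats 7.82, 8.03, 8.01 and 7.86. Line-A gave 7.28, 7.40, 7.43 and 7.20, and Line-C 7.34, 6.85, 7.44 and 7.35. The highest H/W rat lay 2.01 log2 units below the lowest rat of any other group. H/W was 11.8-fold lower than S-D, 10.4-fold lower than L-E, 7.75-fold lower than Line-A and 7.33-fold lower than Line-C (limma, adjusted p = 2.39e-10, 5.46e-10, 4.44e-09 and 5.90e-09).

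On the scan day with 5 arrays of both strains, the log2 difference in *Bco1* was -3.15 (limma, adjusted p = 0.0312), and between the 2 arrays of the other shared day it was -3.47. The lines also lay slightly below S-D, by 0.60 and 0.68 log2 units with a standard error of 0.16 and no overlap. These differences passed 5% FDR (adjusted p = 0.0161 and 0.0105) but not the 1% used for pairs.

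*Aldh1a1*, which oxidises retinal to retinoic acid, took the widest range of group means of these genes, 4.01 log2 units. The L-E rats had signals of 11.54, 11.96, 11.43 and 10.86 and the H/W rats 10.57, 9.77, 10.06 and 9.49. In S-D they were 9.06, 9.44, 8.02 and 9.30. Line-A gave 9.97, 7.81, 8.48 and 7.22, and Line-C 6.73, 7.27, 8.35 and 7.40. Every L-E rat lay above every other rat, and every H/W rat above every S-D and Line-C rat, while Line-A replicate 1 reached into the H/W range. Line-C was 16.1-fold and Line-A 8.45-fold lower than L-E (limma, adjusted p = 1.18e-04 and 8.39e-04), and S-D was 5.63-fold lower than L-E (adjusted p = 0.00348). The Line-A call ended when scan day was a random block (adjusted p = 0.0118) and with the 8 arrays of the pair alone (adjusted p = 0.0229).

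The difference of H/W and L-E in *Aldh1a1*, 2.78-fold with no overlap, was not called (adjusted p = 0.130). Line-C was 5.79-fold lower than H/W (adjusted p = 0.00726), but leaving out any of 11 single arrays gave adjusted p-values of at least 0.0107 and at most 0.0285 for this pair. This call was also lost in 3 of 8 alternative settings (limma, adjusted p up to 0.0534). The call of S-D against L-E ended without S-D replicate 3 or L-E replicate 1 or 2 (adjusted p = 0.0117 to 0.0141). It also ended in 1 of 8 alternative settings (limma, adjusted p = 0.0336). Rats of 1 group differed by up to 2.75 log2 units, in Line-A. The close paralog *Aldh1a7* has no ProbeSet by the annotation used, and whether the *Aldh1a1* probes also bind its mRNA was not tested.

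On a list of 45 genes of retinoid storage, oxidation and signalling, 33 were measured, 22 were expressed and 3 were called by the F-test. *Retsat*, which saturates retinol, was 11.77 ± 0.30 in H/W and 11.74 ± 0.15 in S-D but 9.73 ± 0.21 in L-E, 9.30 ± 0.12 in Line-A and 9.35 ± 0.23 in Line-C (SD, n = 4; limma's F-test, adjusted p = 1.05e-09). In both *Retsat* and *Bco1* the lines were thus near L-E and far from H/W, but with opposite signs of the difference between the parental strains, and S-D was near H/W in *Retsat* and near L-E in *Bco1*. *Lrat*, which esterifies retinol and is a marker of stellate cells, was 5.23 ± 0.15 in S-D and 3.68 ± 0.50 in L-E (adjusted p = 1.81e-04). *Scarb1*, a lipoprotein receptor that also takes up carotenoids, was lowest in S-D at 8.32 ± 0.10 and highest in L-E at 9.27 ± 0.11 (adjusted p = 2.36e-05). *Adh4*, an alcohol dehydrogenase that can act on retinol, ran from 3.57 in S-D to 7.16 in Line-C with an adjusted p of 0.00231, which missed the 0.1% limit. The receptors *Rara* and *Rarb* had adjusted p-values of 0.990 and 0.999, and *Cyp26a1*, *Cyp26b1* and *Aldh1a2* were under the limit of expression.

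Albumin, the general carrier of hydrophobic ligands, held both top signals of every array. ProbeSet 1367555_at ran from 16.52 to 16.72 over all 20 rats and 1367556_s_at from 16.14 to 16.34. The H/W rats had 16.55, 16.66, 16.66 and 16.66 in the first ProbeSet, and the L-E rats 16.55, 16.52, 16.66 and 16.60. Neither ProbeSet was called in any pair at 1% FDR or by the F-test (limma, adjusted p = 0.0497 and 0.103). The first took only 14 different values over 20 arrays, and differences in *Alb* between strains are compressed by the common distribution. A suffix _s_at marks probes that match more than 1 transcript.

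**Figure D4:**
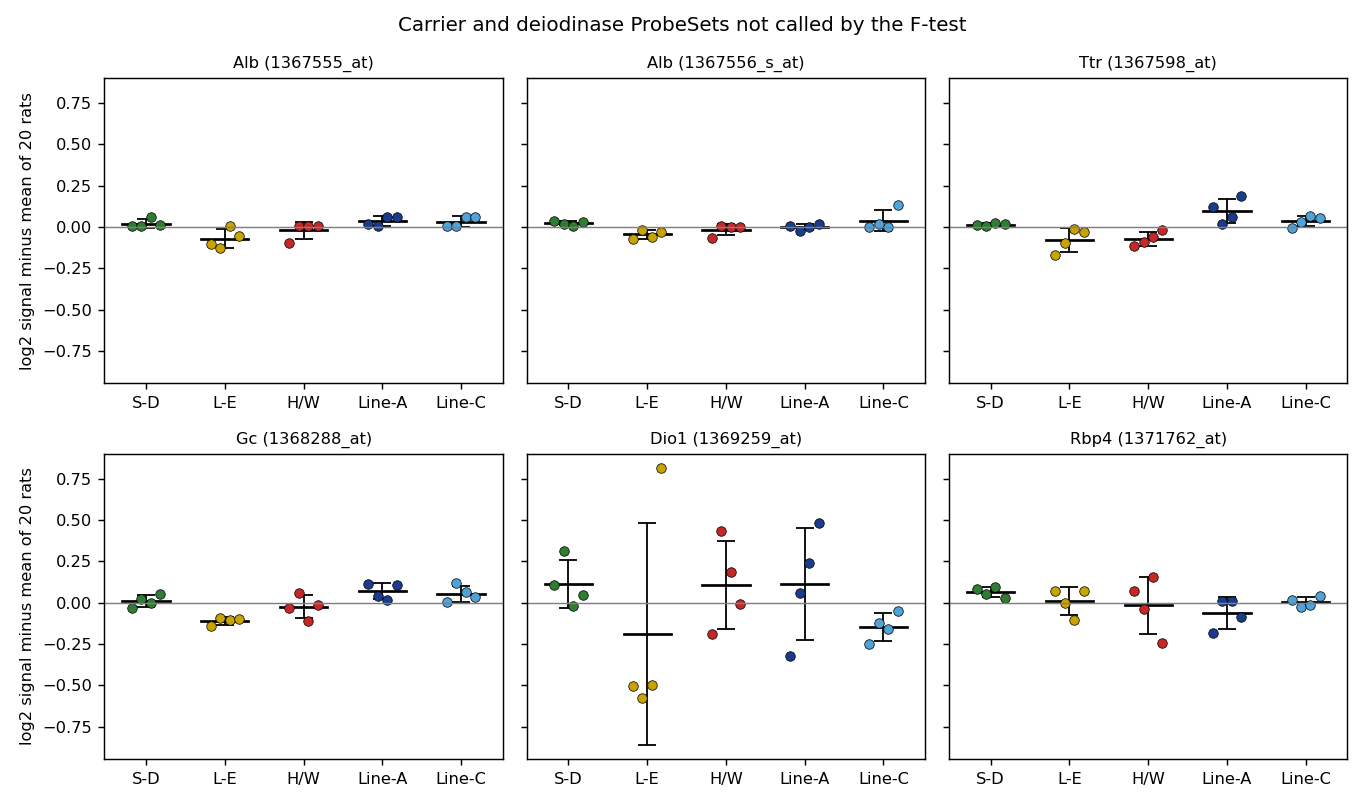
Log2 signal of each rat minus the ProbeSet's own mean over 20 rats (vertical axis, 1 scale for all panels) in the 5 groups, with group mean and SD, for the 6 ProbeSets not called by the F-test. Alb, Ttr, Rbp4 and Gc 1368288_at, top signals that normalization compresses, stay close to 0, whereas Dio1 spreads within groups and has 1 L-E rat far above the rest.

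Among 30 other plasma carriers listed, 28 were measured, 24 were expressed and 8 were called by the F-test. The alpha-fetoprotein gene *Afp*, next to *Alb* on its chromosome, was 5.24 ± 0.72 in L-E, 7.28 ± 0.46 in H/W and 8.23 ± 0.25 in Line-A (SD, n = 4; limma's F-test, adjusted p = 6.75e-05). Of the carriers of insulin-like growth factors, *Igfbp4* was lower in Line-A and Line-C, at 9.38 ± 0.20 and 10.10 ± 0.06, than in the other groups, at 11.31 to 11.49, and *Igfbp3* was highest in S-D at 9.44 ± 0.14. *Igfbp2* was high in L-E at 5.56 ± 0.40, and at most 4.07 elsewhere. Acute-phase proteins, which include several plasma proteins made by hepatocytes, had 2 of 17 expressed genes called. Of 8 expressed liver transcription factors 1 was called, *Cebpa*, which ranged from a Line-C mean of 7.74 ± 0.28 to an L-E mean of 9.09 ± 0.14.

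The variant *Ahr* was considered by a model with shares of the parental strains and an *Ahr* term. It called none of the 11 ProbeSets at 5% FDR, where 0.659% of all ProbeSets were called. The *Ahr* coefficient of this model equals the mean of Line-A minus that of Line-C, so it is no comparison separate from that pair. The lowest unadjusted p was 0.137, for *Serpina6*, whose coefficient was -0.20 with a standard error of 0.13. For *Aldh1a1* the coefficient was 0.93 with a standard error of 1.07, wider than the coefficient itself. The model sets the mean of both lines at the mid-parent value, and departures from it enter this error. The fit with 1 mean per group gave the same difference a standard error of 0.50.

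Whether the H/W to L-E difference recurs between Line-A and Line-C was tested as an interaction at 5% FDR. It was called for 2 of the 11 ProbeSets, *Gc* 1368289_at with a value of 1.24 (limma, adjusted p = 1.56e-05) and *Bco1* with -3.46 (adjusted p = 8.37e-08), where 2.01% of all ProbeSets were called. In both genes H/W and L-E differed while Line-A and Line-C did not differ detectably, by -0.03 and -0.08 log2 units (Line-C minus Line-A). For *Aldh1a1* the interaction was -2.40, with an adjusted p of 0.107.

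In *Gc* 1368289_at, *Bco1* and *Aldh1a1* the lines did not lie midway between their parents. Both lines were scanned on a day that held neither parent. *Gc* 1368289_at exceeded the mid-parent value of 10.67 by 0.73 in Line-A and 0.69 in Line-C (limma, adjusted p = 7.63e-06 and 2.52e-05), which put both lines close to H/W. *Bco1* exceeded its mid-parent value of 6.06 by 1.27 and 1.19 (adjusted p = 2.10e-05 and 6.88e-05), near the L-E level. Both lines thus lay nearer to the higher parental signal in each gene, that of H/W for *Gc* and that of L-E for *Bco1*. In *Bco1* they stayed below L-E without overlap, with log2 differences of -0.42 for Line-A and -0.50 for Line-C. Only the latter passed 5% FDR (adjusted p = 0.0435) but not 1%. *Aldh1a1* fell below its mid-parent value of 10.71, by 2.34 in Line-A and 3.27 in Line-C (adjusted p = 0.00219 and 2.36e-04).

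In all, 10 of 22 such comparisons passed 5% FDR, 5 in each line, where 11.9% of all ProbeSets did in Line-A and 7.68% in Line-C. The other 4 were small, between 0.11 and 0.17 log2 units in *Ttr* and *Gc* 1368288_at. Outside both parents in 1 direction at 5% FDR lay *Aldh1a1* in Line-C and *Ttr* in Line-A, where 2.14% and 4.12% of all ProbeSets did. With equal array medians *Ttr* no longer did, and 6 of the mid-parent calls were left. When scan day was a random block, neither lay outside. Without Line-A replicate 1, *Aldh1a1* lay below both parents in Line-A too.

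**Figure D5:**
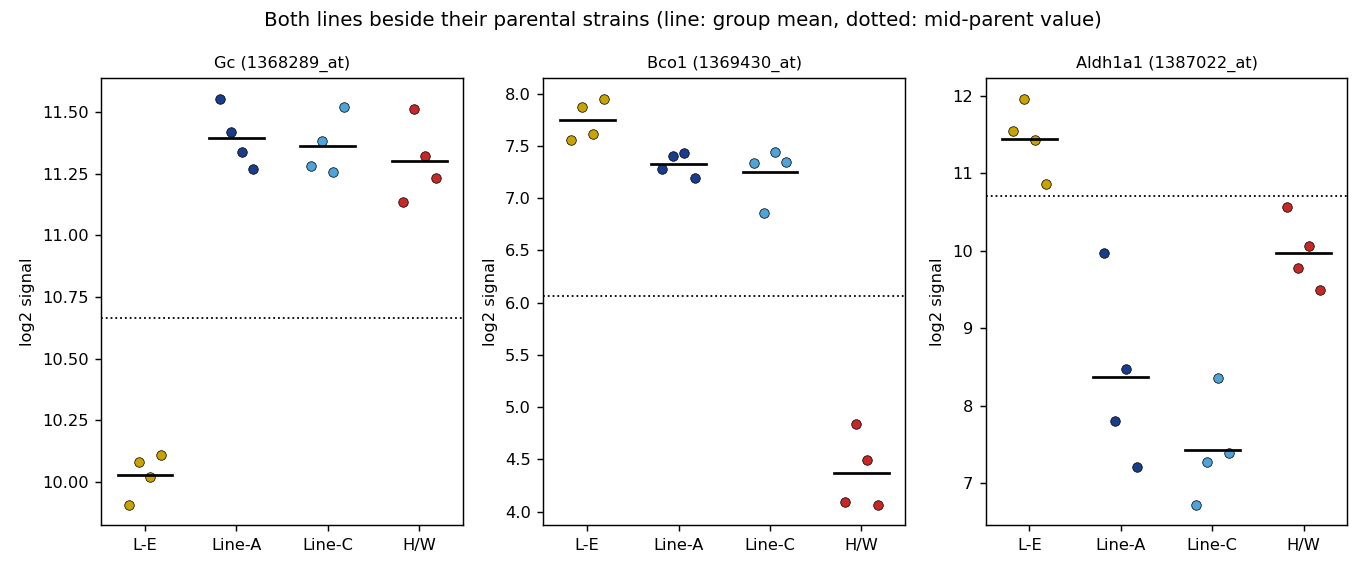
Log2 signal (vertical axis) of the rats of L-E, Line-A, Line-C and H/W for Gc 1368289_at, Bco1 and Aldh1a1, with group means and a dotted line at the mid-parent value. Both lines sit with H/W in Gc, near L-E in Bco1 and below both parental means in Aldh1a1.

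The share of variance within strains, W/T, is 0 where all variance lies between strains and 1 where none does. It was lowest for *Bco1* at 0.0247 and *Gc* 1368289_at at 0.0398, followed by *Serpina6* at 0.168, *Aldh1a1* at 0.194 and *Serpina7* at 0.222. *Gc* 1368288_at and *Ttr* took 0.336 and 0.359, the *Alb* ProbeSets 0.522 and 0.638, and *Dio1* and *Rbp4* both took 1. The median of the 11 was 0.336, against 0.616 over the 7168 expressed ProbeSets.

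The genes whose signals over the 20 arrays ran most like those of the 5 called ProbeSets were found by the root mean square difference of centred log2 signals. There were 6104 candidate ProbeSets or, for *Gc*, 6103. Being chosen for likeness, these genes share the member's low group by the choice itself. The root mean square of the member's own centred signals was 0.54 for *Gc*, 1.32 for *Bco1*, 1.40 for *Serpina7*, 0.40 for *Serpina6* and 1.52 for *Aldh1a1*. Closest to *Gc* 1368289_at were *Mrpl1*, *Ugp2* and *C2cd2*, at 0.27, 0.28 and 0.32 log2 units, all low in L-E like it. Closest to *Bco1* were *Cd63*, *Nupr1* and *Parp9*, at 0.59, 0.62 and 0.89, which were all lowest in H/W. *Serpina7* had *RT1-Db1*, *Fndc3b* and *Galnt2* at 0.73, 0.82 and 0.86, and *Aldh1a1* had *Tle1*, *Stk24* and *Sult2a6* at 0.77, 0.91 and 0.92. For *Serpina6* they were *Dbi*, *Scarb1* and *Rhoa* at 0.21, 0.22 and 0.22, which were all lowest in S-D.

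In the gene order of GRCr8, up to 3 measured genes on each side of every member gave 50 neighbours with expressed ProbeSets, of which 9 (18%) were called by the F-test, against 9.47% of all expressed ProbeSets. They are the nearest genes expressed on this array, and some lie megabases from the member. *Serpina6* lies in a row of serpins, where *Serpina10*, *Serpina1* and *Serpina11* were not called and *Serpina4*, an inhibitor of tissue kallikrein, was 13.47 in Line-A and 12.93 in L-E (limma's F-test, adjusted p = 1.52e-05). Its other neighbours *Ifi27l2b* and *Ifi27*, 181 and 190 kb away, were both called (limma's F-test, adjusted p = 6.57e-04 and 2.66e-05). *Maf* near *Bco1* and *Gda* near *Aldh1a1*, both lowest in Line-A, were also among the 9. So were *Dsc2* and *Cdh2* on 1 side of *Ttr* and *Cyp2c6v1* near *Rbp4*. *Gc* and *Alb* lie near each other on 1 chromosome with *Afp* and *Afm*, and of these 4 only *Afp* was called when each gene was represented by its brightest ProbeSet. The nearest measured neighbours of *Bco1* and *Aldh1a1*, *Gcsh* and *Anxa1*, were not called (adjusted p = 0.755 and 0.00836).

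Markers of other liver cells also differed between groups. Of 15 measured markers of stellate cells and fibroblasts 11 were expressed, and their mean log2 signal per rat was 6.45 to 7.23 in S-D and 5.56 to 6.42 in the other groups. S-D was thus highest here and lowest for *Serpina6*, and all S-D arrays came from 1 scan day that held no other group. In each pair with S-D, 4 to 6 of the 11 were lower in the other group at 1% FDR. *Des*, *Lum*, *Tagln* and *Hgf* of that list were under the limit of expression. The 8 Kupffer cell and macrophage markers, all expressed, had means of 7.52 to 7.62 in Line-A and 7.96 to 8.80 elsewhere. The 2 expressed of 8 measured bile duct markers, *Epcam* and *Slc4a2*, were both called by the F-test and highest in S-D, with a mean signal per rat of 7.59 to 7.90 there and at most 7.31 elsewhere, while the defining *Krt7* and *Krt19* were under the limit. The 5 expressed sinusoidal endothelial markers, of which 1 was called, had means of 8.40 to 8.54 in S-D and at most 8.19 elsewhere. Of 9 lymphocyte markers 2 were expressed and not called, with means of 5.43 to 5.63 in S-D and at most 5.43 elsewhere, and *Cd3d* and *Cd79b* were under the limit. The F-test called none of 9 periportal markers, 2 of 8 expressed pericentral markers (*Cyp1a2* and *Cyp2e1*) and 1 of 9 hepatocyte markers (*Apob*), and these 3 were lowest in S-D. The mean of the 9 hepatocyte markers ran from 14.39 to 14.59 over all rats. They include *Alb* and other bright signals, which the common distribution compresses, so this range is no measure of stability. The part of these cell types in the results was not tested.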

How the data were processed

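Liver mRNA of 20 rats was hybridised to Affymetrix RAE230A arrays, 1 rat to an array. The authors computed the deposited log2 signals with GC-RMA, which corrects background by probe GC content, sets all arrays to a common distribution and summarises probes per ProbeSet. The submitters' processing notes name R 2.6.1, affy 1.12.0 and GCRMA 2.10.0. The deposited array files were read for their headers only (scan day and operator), whose values are other than intensities.

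The values were used as deposited, for 15923 ProbeSets, with no filter on low values. Groups came from the sample labels. A model with 1 mean per group was fitted over all 20 arrays with limma 3.58.1 in R 4.3.3, and p-values were adjusted by Benjamini-Hochberg over all ProbeSets: 0.1% FDR for the F-test, 1% for pairs, and 5% for the Ahr coefficient, the interaction and the comparison of lines with their parents. W/T came from a model with strain as a random effect, by balanced one-way components, with a negative between-strain part set to 0. A fit by restricted maximum likelihood (lme4 1.1.37) gave the same values for the 11 ProbeSets to the digits shown. The difference between 2 ProbeSets of 1 gene was tested by an exact two-sided permutation test. Standard errors are those of the fit, and SD is over the 4 rats of a group. Nothing in the labels says how rats were housed or processed together, so p-values measure the spread between these samples. The number of arrays limits the precision.

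Names came from the array's annotation, and gene order and promoters from RefSeq (GRCr8). The genes, the gene lists and the tests were chosen with earlier results of these data known. Genes outside the 9 are named where the F-test called them on a list, or where they define a list or missed the limit. Others are named where their pattern was closest by root mean square difference, or as neighbours in the gene order. Alternatives were array weights, an intensity trend, further quantile normalization, equal array medians, an expressed-only table, scan day as a block, a replicate block, the 8 arrays of a pair alone, other FDR limits and each array left out. The fit was tested on simulated data of 15923 ProbeSets: for H/W against L-E it recovered 79 of 100 changes of 1 log2 unit and 30 of 100 of 0.5, and the F-test recovered 69 and 20.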

Additional observations from a re-analysis of the deposited data

Results flagged for a closer look

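In 6 of 55 groups of 4 rats, 1 rat lay far from the other 3 by Dixon's test, where chance gives about 1 in 20 groups for continuous normal values. The Alb ProbeSets held both top signals of every array, and 1367555_at took only 14 different values over 20 arrays. That rate therefore does not apply to Alb, and the 6 are not read as an excess. For Alb 1367555_at these were S-D replicate 3 at 16.71, above the others, and H/W replicate 1 at 16.55, below them. For Alb 1367556_s_at they were H/W replicate 1 at 16.14, below, and Line-C replicate 4 at 16.34, above. Dio1 was 6.42 in L-E replicate 4, and Serpina6 was 13.29 in Line-A replicate 1, both above the rest of the group.

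For 2 ProbeSets H/W and L-E differed by another amount than Line-A and Line-C did, by limma's interaction test. The interaction was 1.24 for Gc 1368289_at (adjusted p = 1.56e-05) and -3.46 for Bco1 (adjusted p = 8.37e-08). All 4 L-E rats lay below all 4 H/W rats in Gc 1368289_at and above them in Bco1.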

How the results depend on the processing

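Of 22 pair calls, 10 were kept under every alternative, and over 620 values 561 kept their call, 59 lost it and none reversed. When scan day was a random block, the F-test called 2 ProbeSets (Gc 1368289_at and Bco1), the pairs gave 14 calls, and 0 ProbeSets lay outside both parents. For S-D against any group, and for a line against L-E or H/W, that block cannot separate strain from scan day. Equal array medians left 1 outside both parents and 6 off the mid-parent value, array weights gave 4 interaction calls, and the 8 arrays of a pair alone gave 14 pair calls. At 5% FDR the F-test called 8 and the pairs 33. Over all 15923 ProbeSets the F-test called 733 in the main fit, 248 with the scan day block, 686 with equal medians and 5649 with array weights. Calls over the whole array thus shifted too, and shifts in the counts here are not read as particular to these genes. Shares over all ProbeSets for the other FDR limits and the pair-alone fits are not given here. Further quantile normalization gave a median W/T of 0.197 and left the Alb ProbeSets no spread. Leaving out 1 array gave 4 to 5 F-test calls, 18 to 24 pair calls, 2 to 3 interactions, 2 to 3 outside both parents, 8 to 12 off the mid-parent value, a median W/T of 0.250 to 0.368 and a Gc gap of 1.16 to 1.21. It gave 0 calls for Ahr throughout. For these counts the cause was not tested. Replicate numbers did not pair the samples: over 40 same-numbered pairs of arrays the correlation of deviations ran from -0.341 to 0.216, with 6 over 0.1. A replicate block gave 4 F-test calls, 23 pair calls and 12 off the mid-parent value. It ended the F-test call of Serpina7 (adjusted p = 0.00147) and the call of Aldh1a1 between Line-C and H/W (adjusted p = 0.0125).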
